A study of Mus musculus with 45 samples.

Results

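The endocannabinoid receptor and enzyme genes described here are Cnr1, Dagla, Daglb, Mgll, Abhd6, Napepld and Faah, in the NAC (nucleus accumbens, part of the ventral striatum) after chronic intermittent ethanol (CIE). They were chosen by name and taken at every probeset whose platform annotation gave the gene's symbol alone, which gave 13 probesets of 7 genes out of 45037 probesets and 18193 genes. Adult male C57BL/6J mice (strain C57BL/6 in the labels) spent 16 h of each day in inhalation chambers for 4 days, then had 7 days without ethanol, in 4 such cycles. In CIE mice an injection of 1.6 g/kg ethanol, with 1 mmol/kg of the alcohol dehydrogenase inhibitor pyrazole, preceded each cycle, and the chambers held 10 to 13 mg/l of ethanol. Control (Ctrl) mice had saline with the same pyrazole dose and breathed air, so that pyrazole is common to all groups. NAC tissue was collected at 0 h (6 CIE and 6 Ctrl arrays), 8 h (5 CIE and 5 Ctrl), 72 h (5 CIE and 6 Ctrl) or 7 d (6 CIE and 6 Ctrl) after the last session, with 1 mouse per array. The arrays were single-colour Affymetrix mouse arrays, the values are log2 expression values, and the precision is limited by the number of arrays.

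Endocannabinoids are lipid messengers that are made in the membrane of the postsynaptic neuron and act backwards on the presynaptic terminal. Cnr1 encodes the CB1 receptor, a G protein coupled receptor that reduces transmitter release and is the main target of cannabis in the brain. The messenger 2-AG is made by the diacylglycerol lipases encoded by Dagla and Daglb, and it is broken down by monoacylglycerol lipase (Mgll) and by the hydrolase Abhd6. The other messenger, anandamide, can be made by the phospholipase encoded by Napepld and is broken down by fatty acid amide hydrolase (Faah). In the striatum the CB1 receptor sits on the terminals of medium spiny neurons, on local interneurons and on glutamatergic fibres from the cortex.

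Mgll was the member that stood out most from the spread between arrays, in the comparison at 0 h. Its log2 value was higher by 0.35 in CIE mice, a fold of 1.28, with an adjusted p of 0.0109 in limma, which lay just above the threshold of 0.01 and below 0.05. Cnr1 and Faah were higher by 0.43 and 0.52 at 0 h without passing either threshold, and their values followed the markers of cortical neurons from array to array. Dagla, Daglb, Napepld and Abhd6 passed at no time.

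Mgll lies at chromosome 6, 88724412 to 88828360 (all positions are those of GRCm38.p6). The stretch of 250 bases before its first annotated start, chr6:88724162-88724411 on the plus strand, is shown because Mgll is the member with the clearest difference between the groups. Capitals mark a core motif of the glucocorticoid receptor element (TGTTCT, or AGAACA on the other strand) and an E-box (CACGTG), the motif of basic helix-loop-helix factors that include the clock proteins. The sequence is from RefSeq (GRCm38.p6).
Mgll: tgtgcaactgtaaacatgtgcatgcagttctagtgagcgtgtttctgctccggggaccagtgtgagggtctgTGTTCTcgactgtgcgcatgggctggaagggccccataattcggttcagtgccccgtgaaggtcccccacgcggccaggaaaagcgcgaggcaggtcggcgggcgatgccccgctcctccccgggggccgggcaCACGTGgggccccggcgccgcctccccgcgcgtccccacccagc
The motifs were searched on both strands and did not overlap. Of 32851 such windows of all genes, 16.1% held at least 1 glucocorticoid receptor core motif and 6.02% held an E-box, so that neither motif is rare. The cyclic AMP response element TGACGTCA, held by 1.55% of all windows, was not in this window. A second annotated start of Mgll has a window of its own, chr6:88724454-88724703, which held none of the 3 motifs. Windows were found for 6 of the 7 genes, Dagla being the exception. The window of Faah held 2 glucocorticoid receptor core motifs (1.81% of all windows held 2 or more), and the second of 3 windows of Cnr1 held 1 E-box. Those windows, chr4:116017925-116018174 for Faah and chr4:33924394-33924643 for Cnr1, lie within the ranges given below for these genes. The second window of Mgll likewise lies within the range of Mgll. None of the 3 motifs was found in the windows of Daglb, Napepld or Abhd6. A match of letters is a description of the sequence, and binding was not measured here.

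In the CIE arrays of 0 h the brightest Mgll probeset, 1426785_s_at, read 11.80, 11.89, 12.03, 11.96, 11.88 and 11.44. In the Ctrl arrays of 0 h it read 11.74, 11.34, 11.53, 11.27, 11.60 and 11.40. In 5 of the 6 CIE arrays Mgll was above every Ctrl array, and the remaining CIE array, replicate 72, lay among the Ctrl arrays, so that the groups overlapped through this array alone. The means were 11.83 ± 0.21 in CIE mice and 11.48 ± 0.18 in Ctrl mice (SD, n = 6 each). The change was 0.35 with a standard error of 0.085 and a 95% confidence interval of 0.18 to 0.53 (adjusted p = 0.0109, limma).

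The Mgll difference was seen within every inferred hybridization set that allowed the comparison. The labels name no batch, but arrays that share exactly equal values could be placed in 6 sets with at most 1 array of each group. Within the 5 sets that held both groups at 0 h, the CIE array was above the Ctrl array in 5 of 5, by 0.36 to 0.76. These sets left out CIE replicate 72, the lowest CIE array, and Ctrl replicate 20, the highest Ctrl array. The count therefore does not cover the arrays that lay most towards the other group. Blocking on the sets gave a change of 0.41 (adjusted p = 0.0121), in a fit to which Ctrl replicate 20, being in no set, added nothing. Over the 12 fits that each left out 1 array of 0 h, the Mgll adjusted p ran from 0.000892 to 0.0409. A fit to the arrays of 0 h alone kept the change of 0.35 but gave an adjusted p of 0.16, which ended the call at 0.05. The fits that passed 0.01 left out arrays that lay towards the other group. When CIE replicate 72 was left out, the Mgll change was 0.43 and the adjusted p was 0.000892. When Ctrl replicate 20, the highest Ctrl array, was left out, the change was 0.40 and the adjusted p was 0.0043 for Mgll.

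The other Mgll probesets were not alike. Probeset 1450391_a_at averaged 11.41 ± 0.23 in CIE mice and 11.13 ± 0.08 in Ctrl mice at 0 h (SD, n = 6 each), a change of 0.28 with an adjusted p of 0.0158, and again 5 of the 6 CIE arrays were above every Ctrl array. Probeset 1453836_a_at had a change of 0.37 but a standard error of 0.23 (adjusted p = 0.453). Within the sets its CIE array was higher in 5 of 5, again without CIE replicate 72 and Ctrl replicate 20. The dim probeset 1431331_at averaged 6.06 over all arrays and had a change of -0.05 (adjusted p = 0.813). The suffix s marks probesets that may match more than 1 transcript or gene, and which part of Mgll each probeset reads was not analysed here.

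**Figure D1:**
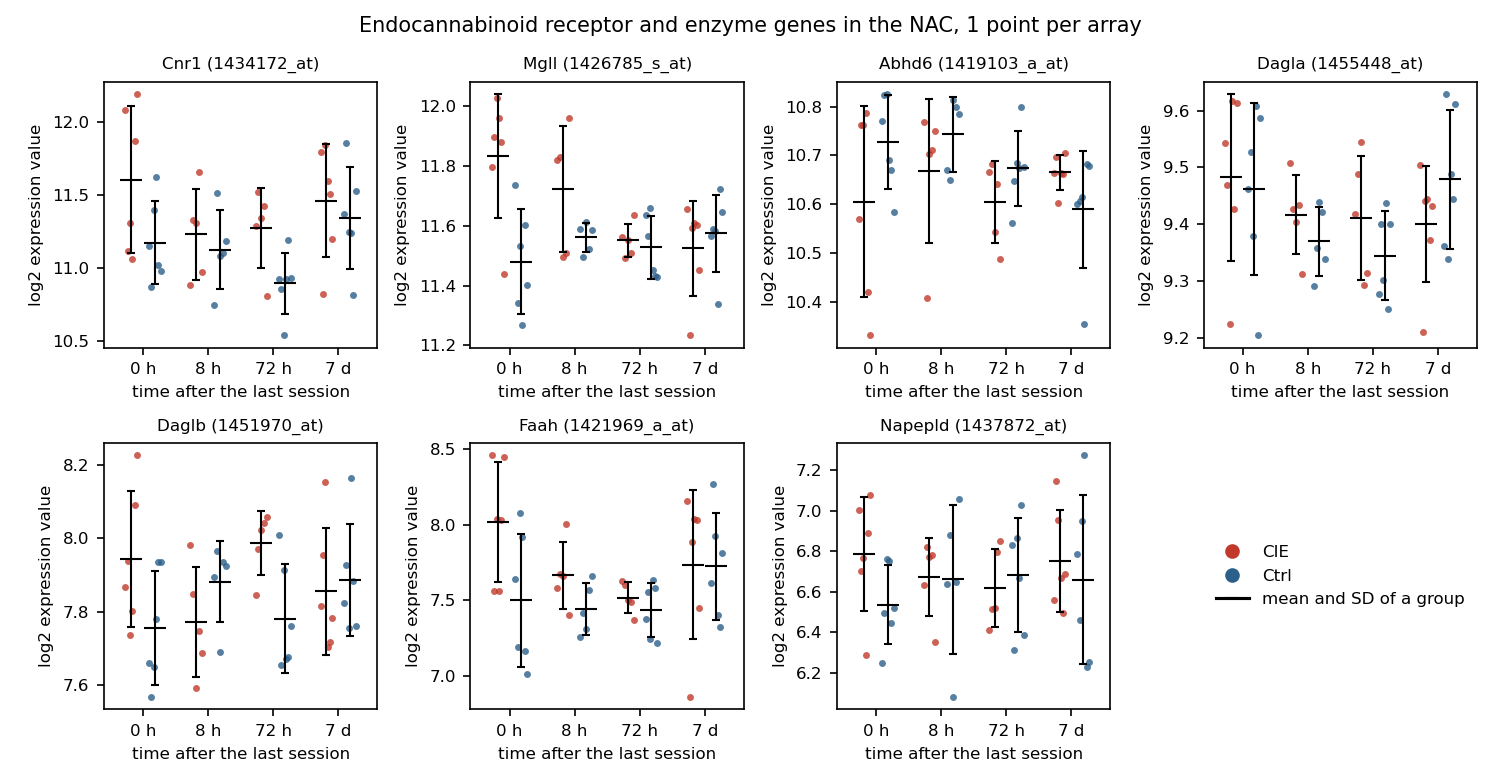
Log2 expression value (vertical axes, a scale for each panel) of the 7 genes at their brightest probeset by time after the last session, with 1 point per array, CIE in red to the left of Ctrl in blue, and black bars for the mean and SD of each group. In the Mgll panel 5 of the 6 CIE arrays at 0 h sit above every Ctrl array, and the groups overlap at every time in every panel.

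Over the 13 probesets, limma called 0 at the threshold of 0.01 at 0 h, where 1.59% of all probesets were called, and 2 at 0.05, both of Mgll, where 3.93% of all probesets were called. An unadjusted p under 0.05 was found for 6 of the 13, against 16.5% of all probesets. The change at 0 h was above 0 for 10 of the 13 probesets and for 6 of the 7 genes at their brightest probeset, against 51.8% of all probesets. Its median over the 13 was 0.25, and over all probesets it was 0.0042. None of the 13 had groups that did not overlap at any time, while 1.35%, 1.93%, 0.915% and 0.151% of all probesets did at 0 h, 8 h, 72 h and 7 d. Probesets of a gene share their transcripts and are not independent of each other.

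At 8 h the CIE arrays read 11.82, 11.83, 11.50, 11.51 and 11.96 for Mgll (1426785_s_at). The Ctrl arrays of 8 h read 11.59, 11.50, 11.61, 11.52 and 11.59. Of the 5 CIE arrays, 3 were above every Ctrl array and the other 2 lay at the low end of the Ctrl values or below them. The change was 0.16 with a 95% confidence interval of -0.03 to 0.35 (adjusted p = 0.765). None of the 13 probesets was called at 8 h, where 0.0622% of all probesets were called at 0.01 and 0.224% at 0.05, and 0 had an unadjusted p under 0.05, against 7.42% of all.

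By 72 h the Mgll values ran from 11.49 through a median of 11.55 to 11.64 in CIE mice and from 11.43 through 11.51 to 11.66 in Ctrl mice. At 7 d they ran from 11.23 through 11.60 to 11.66 in CIE mice and from 11.34 through 11.59 to 11.72 in Ctrl mice. The groups overlapped nearly in full at both times. The changes were 0.02 at 72 h and -0.05 at 7 d, with 95% confidence intervals of -0.16 to 0.20 and -0.22 to 0.12. At 72 h and at 7 d none of the 13 probesets was called, nor was any other probeset (0% of 45037). An unadjusted p under 0.05 was found for 1 of the 13 at 72 h (7.2% of all probesets) and for 0 at 7 d (2.34% of all).

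Whether the Mgll difference of 0 h was larger than that of the later times was tested directly. The CIE effect at 7 d minus that at 0 h was -0.40 with a standard error of 0.12 (adjusted p = 0.115), at 72 h it was -0.33 (adjusted p = 0.407), and at 8 h it was -0.19 (adjusted p = 0.99). Over all probesets these tests called 0.755%, 0.238% and 0.0155% at 0.05. None of the 13 passed, so the difference at 0 h is not shown to be particular to that time. Within the CIE arrays, the Mgll level at 7 d minus that at 0 h was -0.31 with an adjusted p of 0.0304, in a comparison that called 3.32% of all probesets at 0.05 and 1.5% at 0.01. The F test for differences between the 4 times gave an adjusted p of 0.0522 in CIE mice, where 4.72% of all probesets passed at 0.05, and 0.963 in Ctrl mice, where 0.426% did. A limma F test of CIE against Ctrl at the 4 times together gave Mgll an adjusted p of 0.0702 at 1426785_s_at. At 1450391_a_at it was 0.0774, and no member probeset passed 0.05 in that test.

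Ordered by mean level, Mgll was highest in CIE 0 h and CIE 8 h, followed by Ctrl 7 d, Ctrl 8 h, CIE 72 h, Ctrl 72 h and CIE 7 d, and was lowest in Ctrl 0 h. Every step between neighbours in this order was under 1 pooled SD, and this held for the orders of the other 6 genes as well. The widest such step was 0.96 pooled SD, between Ctrl 8 h and Ctrl 72 h for Cnr1.

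**Figure D2:**
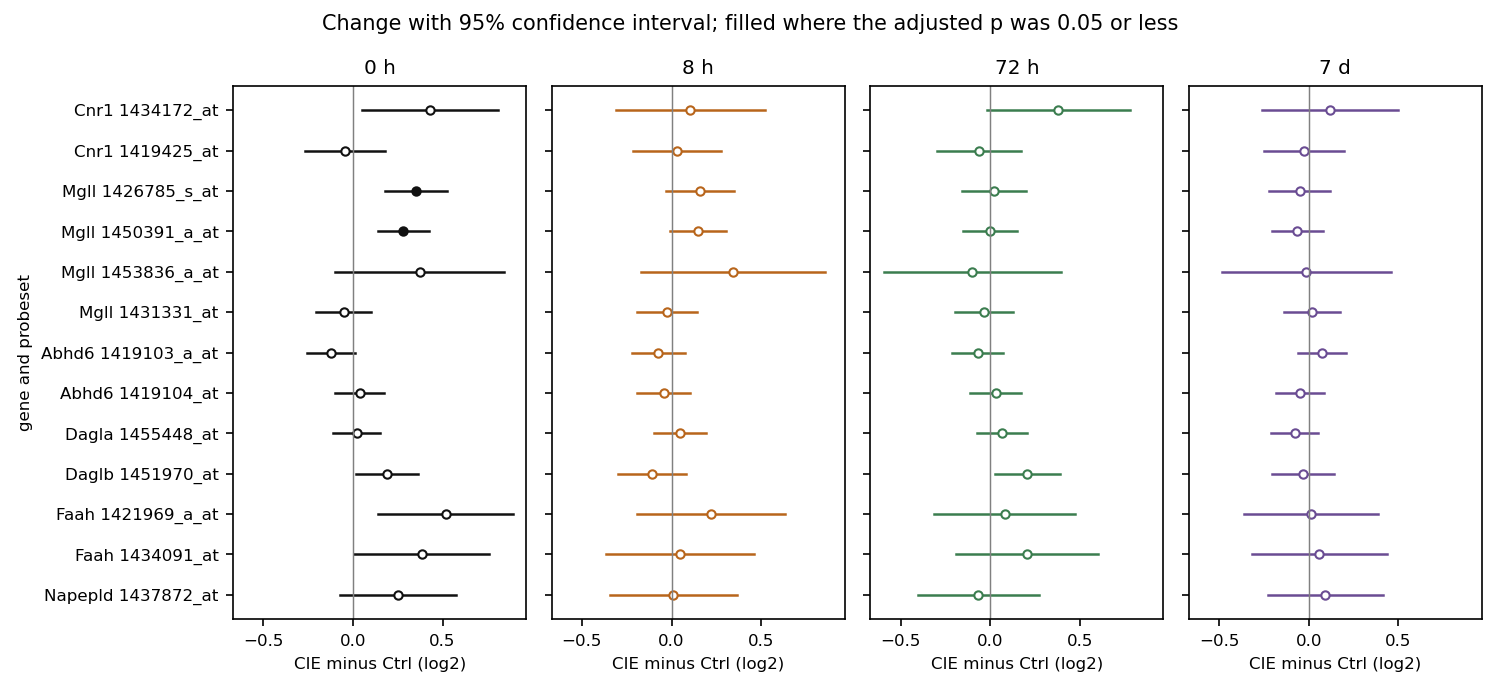
CIE minus Ctrl change on the log2 scale (horizontal axes) of the 13 probesets (rows) at 0 h, 8 h, 72 h and 7 d, as points with the 95% confidence interval from limma, filled where the adjusted p was 0.05 or less. The filled points are those of 2 Mgll probesets at 0 h, and at 7 d every interval includes 0.

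Cnr1, the CB1 receptor gene (chromosome 4, 33923171 to 33948831), had its highest mean in CIE 0 h. At probeset 1434172_at the CIE arrays of 0 h read 12.08, 11.11, 11.30, 11.06, 11.87 and 12.19, against 11.15, 10.87, 11.40, 11.62, 11.02 and 10.98 in the Ctrl arrays. The CIE values separated into 3 arrays above every Ctrl array and 3 within the Ctrl range. The change was 0.43 with a standard error of 0.19 (adjusted p = 0.222), and within the sets the CIE array was higher in 3 of 5. At 72 h the change was 0.38 (adjusted p = 0.697), with 4 of the 5 CIE arrays above every Ctrl array. At 8 h and 7 d it was 0.10 and 0.12. The dim probeset 1419425_at averaged 6.28 and did not follow, with changes of -0.05 at 0 h and -0.06 at 72 h.

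The levels of Cnr1 moved with the markers of cortical pyramidal neurons. The mean log2 value of 12 such marker genes was 9.49, 8.27, 8.35, 7.49, 9.22 and 9.72 in the CIE arrays of 0 h, in the same array order as above, so that the 3 arrays with the most Cnr1 were the 3 with the most cortical marker signal. In the Ctrl arrays of 0 h it was 8.33, 7.40, 8.71, 9.01, 8.15 and 8.20. The group means were 8.75 ± 0.86 in CIE mice and 8.30 ± 0.55 in Ctrl mice (SD, n = 6 each), and at 72 h they were 8.50 ± 0.48 in CIE mice (n = 5) and 7.83 ± 0.37 in Ctrl mice (n = 6). None of the 12 markers passed at 0.01 at any time. Medium spiny neurons, the main neurons of the NAC, were well represented, with defining markers Penk, Tac1, Drd1, Ppp1r1b and Drd2 at means of 13.70, 13.06, 12.55, 12.13 and 10.13. The cortical markers Slc17a7, Tbr1 and Neurod6 were far more variable between arrays, from 4.74 to 9.35, from 4.80 to 9.99 and from 4.12 to 10.10. In bulk tissue, fewer cells of a type and less RNA per cell cannot be told apart.

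With each group's mean taken off, Cnr1 and the cortical marker mean had a Pearson's r of 0.94 and a Spearman's rho of 0.95 over 45 arrays. The two-sided permutation p was 1e-05 for both, the smallest that 100000 resamples can give, and 7e-05 after adjustment over the 35 relations computed between members and with marker means. Without the 2 arrays farthest from the median of the marker mean r was 0.94, and within the 6 sets it ran from 0.93 to 0.97. Cnr1 ran against the mean of 22 medium spiny neuron markers, with r of -0.76 and rho of -0.75 (permutation p = 1e-05, adjusted p = 7e-05), from -0.96 to -0.59 within the sets.

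Faah, which breaks down anandamide (chromosome 4, 115996668 to 116018837), resembled Cnr1 at 0 h. At 72 h, where the Cnr1 change was 0.38, the Faah change was smaller at each of its probesets. At probeset 1421969_a_at the CIE arrays of 0 h read 8.46, 7.56, 8.04, 7.57, 8.03 and 8.45, against 7.64, 7.19, 8.08, 7.92, 7.16 and 7.01 in the Ctrl arrays. All 6 CIE arrays were above the Ctrl mean, but only 2 were above every Ctrl array. The change was 0.52 with a standard error of 0.19 (adjusted p = 0.115), the largest change of any member, and within the sets it was positive in 4 of 5. The other probeset, 1434091_at, had a change of 0.38 (adjusted p = 0.289) and was higher in CIE in 2 of 5 sets. At 8 h, 72 h and 7 d the changes of 1421969_a_at were 0.22, 0.08 and 0.01, with adjusted p values of 0.914 or more. Those of 1434091_at were 0.05, 0.21 and 0.06 (adjusted p = 0.837 at 72 h). Within the sets 1434091_at was higher in CIE in 5 of 5 at 72 h.

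Faah followed the cortical marker mean with r of 0.81 and rho of 0.81 (permutation p = 1e-05, adjusted p = 7e-05 over the 35 relations). Without the 2 farthest arrays r was 0.76, and within the sets it ran from 0.68 to 0.93. Against the medium spiny neuron markers r was -0.68 and rho was -0.71 (permutation p = 1e-05 for r, adjusted p = 7e-05), from -0.90 to -0.59 within the sets. Cnr1 and Faah also followed each other, with r of 0.81 and rho of 0.78 (permutation p = 1e-05, adjusted p = 7e-05), from 0.71 to 0.90 within the sets and 0.80 without the 2 farthest arrays.

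Mgll did not share this pattern. Its r with the cortical marker mean was -0.19 and rho was -0.21 (permutation p = 0.306, adjusted p = 0.411), and within the sets r ran from -0.60 to 0.67. With the medium spiny neuron markers r was 0.35 and rho was 0.31 (permutation p = 0.0619, adjusted p = 0.144). A fit with the cortical marker mean as a covariate, chosen after these relations were seen, gave a Mgll change at 0 h of 0.37 (adjusted p = 0.00782) at 1426785_s_at and of 0.31 (adjusted p = 0.00559) at 1450391_a_at. In that fit 2 member probesets passed at 0.01. Over the 9 other settings, this fit among them, the number of all probesets called at 0 h ran from 19 to 812. In the same fit the change at 0 h was 0.20 for Cnr1 (adjusted p = 0.10) and 0.32 for Faah (adjusted p = 0.115), and the Cnr1 change at 72 h was 0.04 (adjusted p = 0.888).

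**Figure D3:**
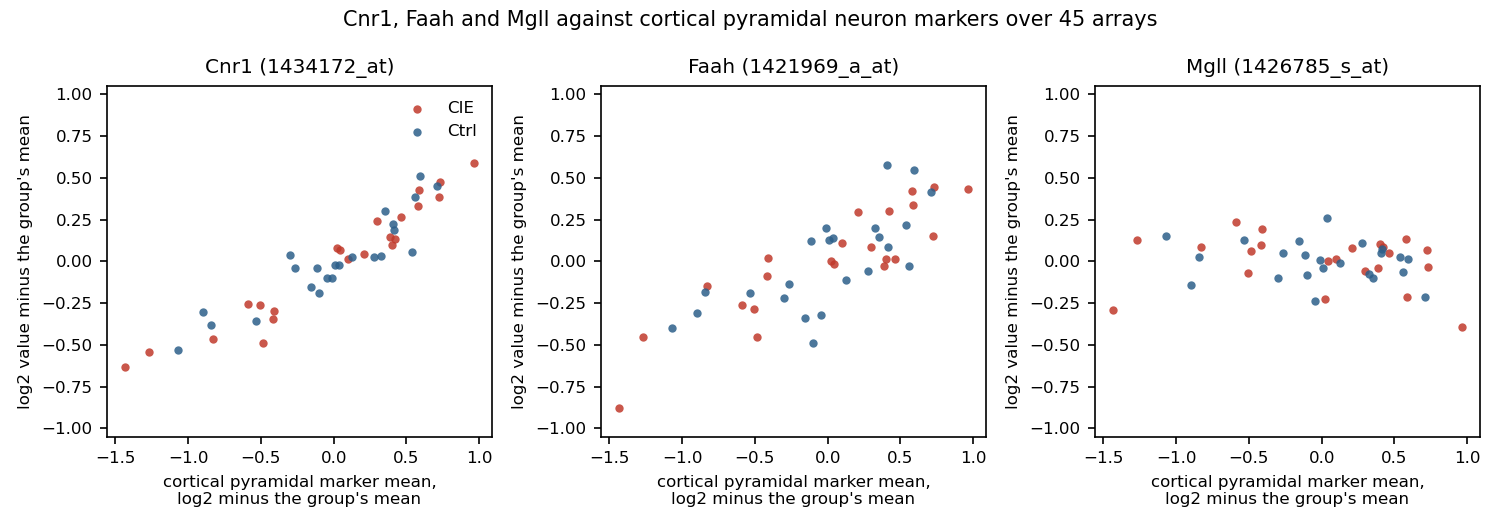
Log2 value of Cnr1, Faah and Mgll at their brightest probeset (vertical axes) against the mean log2 value of 12 cortical pyramidal neuron markers (horizontal axes), both minus the mean of the array's group, with 1 point for each of the 45 arrays, CIE in red and Ctrl in blue. Cnr1 (r = 0.94) and Faah (r = 0.81) climb with the markers, and Mgll (r = -0.19) does not.

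Of the synthesis genes of 2-AG, Dagla (chromosome 19, 10245265 to 10304877), which encodes the lipase that makes most 2-AG in the adult brain, ran from 9.20 to 9.63 over all 45 arrays. Its values at 0 h ran from 9.22 through a median of 9.51 to 9.62 in CIE mice and from 9.20 through 9.49 to 9.61 in Ctrl mice. The groups covered the same range, and the change was 0.02 with a 95% confidence interval of -0.11 to 0.15 (adjusted p = 0.925). The Dagla changes at 8 h, 72 h and 7 d were 0.05, 0.07 and -0.08.

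Daglb (chromosome 5, 143464484 to 143504442), the second lipase, which is known for its part in microglia and macrophages, had changes of 0.19 at 0 h (adjusted p = 0.245) and 0.21 at 72 h (adjusted p = 0.675). At 0 h its values ran from 7.74 through 7.90 to 8.23 in CIE mice and from 7.57 through 7.72 to 7.94 in Ctrl mice. At 72 h the CIE arrays ran from 7.84 through 8.02 to 8.06 and the Ctrl arrays from 7.65 through 7.72 to 8.01, with 3 of the 5 CIE arrays above every Ctrl array. Between these times, at 8 h, the Daglb change was -0.11 (adjusted p = 0.902), and at 7 d it was -0.03. Of 14 microglial markers 3 fell at 0 h at the threshold of 0.01, where 1.59% of all probesets were called in either direction. The mean change of the 14 was -0.35 and the median was -0.23. The part of these markers in the Daglb values was not tested.

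Abhd6 (chromosome 14, 8002888 to 8056773), which removes a smaller share of 2-AG than Mgll at the postsynaptic side, passed at no time. Over the 45 arrays its r with Mgll was 0.30 and rho was 0.19 (permutation p = 0.132, adjusted p = 0.22). At 0 h 1419103_a_at averaged 10.61 ± 0.20 in CIE mice and 10.73 ± 0.10 in Ctrl mice (SD, n = 6 each), and no CIE array was above every Ctrl array. CIE replicates 5, 67 and 72, at 10.57, 10.42 and 10.33, lay below the lowest Ctrl array, at 10.58. The change was -0.12 with a standard error of 0.067 (adjusted p = 0.366), and the second probeset, 1419104_at, had a change of 0.04. The changes of 1419103_a_at at 8 h, 72 h and 7 d were -0.07, -0.07 and 0.08.

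Napepld (chromosome 5, 21662901 to 21701622), which can make anandamide, had a change of 0.25 at 0 h with a 95% confidence interval of -0.07 to 0.57 (adjusted p = 0.46). Its values at 0 h ran from 6.29 through 6.83 to 7.08 in CIE mice and from 6.25 through 6.51 to 6.76 in Ctrl mice, with 4 of the 6 CIE arrays above every Ctrl array. At 8 h, 72 h and 7 d the Napepld changes were 0.01, -0.07 and 0.09, each smaller than its standard error of 0.16 to 0.17.

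Among themselves the 7 genes formed 21 pairs, of which 9 had a positive r and 5 had an adjusted p under 0.05. Daglb and Abhd6 ran against each other, with r of -0.65 and rho of -0.56 (permutation p = 7e-05, adjusted p = 0.00035), and r was negative in 6 of 6 sets, from -0.95 to -0.36. Mgll and Napepld also ran against each other, with r of -0.50 and rho of -0.44 (permutation p = 0.00048, adjusted p = 0.0021), from -0.84 to -0.19 within the sets. Daglb and Napepld ran together, with r of 0.49 and rho of 0.45 (permutation p = 0.00187, adjusted p = 0.00727), from 0.13 to 0.75 within the sets. Napepld and Abhd6 had r of -0.43 and rho of -0.36 (permutation p = 0.00492, adjusted p = 0.0172), from -0.90 to -0.03 within the sets. The p values given for these 4 pairs are those of r. For rho the adjusted p values were 0.0014, 0.0149, 0.0149 and 0.0713, so that Napepld and Abhd6 did not pass 0.05 by rank. Without the 2 farthest arrays the r of these 4 pairs was -0.62, -0.46, 0.38 and -0.41. Napepld was the third member that ran against the medium spiny neuron markers, with r of -0.63 and rho of -0.65 (permutation p = 2e-05, adjusted p = 0.000117), from -0.86 to -0.23 within the sets and -0.58 without the 2 farthest arrays.

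**Figure D4:**
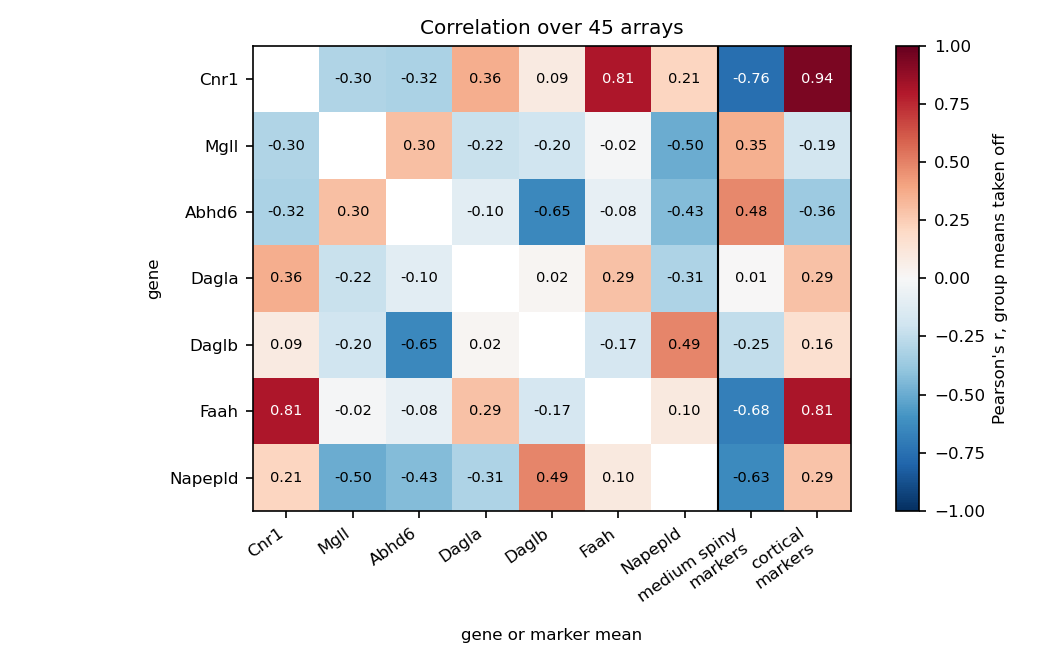
Pearson's r over 45 arrays, with group means taken off, between the 7 genes at their brightest probeset (rows and columns) and between each gene and the mean of 22 medium spiny or 12 cortical pyramidal neuron markers (columns right of the line), coloured from blue (negative) to red (positive). Cnr1, Faah and the cortical markers form the strongest positive group, and Daglb and Abhd6 the strongest negative pair among the genes.

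The genes whose values were most like each member were sought among the brightest probesets of 18192 other genes, by Pearson's r over 45 arrays with group means taken off, as a description with no test. For Cnr1 they were Stx1a (r = 0.98), a syntaxin of the presynaptic release machinery, Fhl2 (0.97) and C1ql3 (0.96), a secreted synaptic protein. For Faah they were Syp (0.89), the synaptic vesicle protein synaptophysin, Cnih3 (0.89), an auxiliary protein of AMPA receptors, and Ociad2 (0.89). For Mgll they were Gm26588 (0.82), Srxn1 (0.81), an antioxidant enzyme, and Thbs3 (0.80). The closest genes were Rab6b (0.76) for Dagla, Slc44a2 (0.87) for Daglb, Tradd (0.90) for Napepld and Zfp292 (0.88) for Abhd6.

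The wider endocannabinoid list held 39 genes in 6 groups, of which 36 were measured with 85 probesets, and limma called 1 of the 36 at 0 h, where it called 1.59% of all probesets. Fabp7, a fatty acid binding protein of astrocytes and progenitor cells that can carry anandamide inside cells, fell at 0 h to 9.23 ± 0.31 in CIE mice, against 9.89 ± 0.18 in Ctrl mice (SD, n = 6 each). The change was -0.66 with a standard error of 0.12 (adjusted p = 0.000371). Blocking on the sets gave an adjusted p of 0.00572. At 8 h Fabp7 averaged 9.38 ± 0.18 in CIE mice and 9.96 ± 0.10 in Ctrl mice (SD, n = 5 each), a change of -0.58 with an adjusted p of 0.0284. Blocking on the sets ended this call at 0.05 (adjusted p = 0.0567), and with single arrays of 8 h left out the Fabp7 adjusted p ran from 0.0144 to 0.104. At 72 h and 7 d the Fabp7 changes were -0.11 and 0.16.

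In the group of other receptors, 0 of 5 measured genes passed at any time. The vanilloid channel gene Trpv1, a further target of anandamide, was dim, at 4.07 in CIE mice of 0 h. Its changes were 0.05, -0.02, 0.17 and 0.12 at 0 h, 8 h, 72 h and 7 d, with an adjusted p of 0.673 at 72 h. Of the other synthesis genes 0 of 7 passed, with Pla2g4e, an acyltransferase that makes the precursor of anandamide, at 0.35 (adjusted p = 0.108) and Gde1, a phosphodiesterase of that pathway, at 0.17 (adjusted p = 0.0682) at 0 h. Of the other breakdown enzymes 0 of 5 passed, with the lipoxygenase Alox12 at -0.25 (adjusted p = 0.12) and the 2-AG hydrolase Abhd12 at 0.06. The upstream genes that drive diacylglycerol formation gave 0 of 8, with the G protein subunit Gnaq at 0.13 (adjusted p = 0.122) and the glutamate receptor Grm5 at -0.01. The inhibitory G proteins used by the CB1 receptor gave 0 of 4, with Gnao1 at -0.17 (adjusted p = 0.156). An unadjusted p under 0.05 was found for 11 of the 36 genes at 0 h, and at 8 h, 72 h and 7 d for 2, 3 and 0 of them, Fabp7 included, against 16.5%, 7.42%, 7.2% and 2.34% of all probesets at the 4 times. The 36 genes were counted at their brightest probeset, while the shares are over every probeset, dim ones included. The median change of the 36 genes at 0 h was 0.04, and that of all 18193 genes at their brightest probeset was 0.02.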

How the data were processed

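RNA from the NAC of 45 mice was hybridized to 1 Affymetrix array each. The authors deposited log2 values for each probeset, obtained with RMA (background correction and quantile normalization) and then joint quantile normalization and ComBat batch adjustment according to their methods. No version of RMA was found, and the methods give the array name in more than 1 form. Such steps pull arrays towards each other and can shrink group differences. Groups and replicate numbers came from the labels, which describe equal groups although 3 of them hold 5 arrays here. Array medians lay between 6.94 and 6.96, and no arrays were identical. Of 45037 probesets, 34945 had 1 gene symbol in the platform annotation, 932 several and 9160 none. Of the first, 34741 were matched to the RefSeq table of GRCm38.p6.

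A mean for each of the 8 groups was fitted to all probesets with limma 3.58.1 in R 4.3.3 (default eBayes, no covariate), with Benjamini-Hochberg adjustment over all probesets of a contrast and thresholds of 0.01, as in the study, and 0.05. The fit was checked on simulated data. Arrays that shared at least 5 exactly equal values (tolerance 2e-08) formed inferred hybridization sets, which may differ from the authors' batches. Ctrl 0 h replicate 20 belonged to no set, and when blocking on the sets it adds nothing. Relations were tested in Python 3.11.15 with scipy 1.17.1 by permuting arrays within groups.

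All member probesets were named, each gene's brightest being its main one. Of the wider list, genes that passed and a few per group were named. The members, gene lists and markers were chosen with earlier results of these data known. Alternatives were another quantile normalization, median centring, trend and robust eBayes, array weights, the sets as a block, the arrays of a single time, a filter on a mean log2 under 6, the brightest probesets alone, each array left out in turn and, added after seeing the data, the cortical marker mean as a covariate. Genes from probesets with several symbols were not analysed here.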

Additional observations from a re-analysis of the deposited data

Results flagged for a closer look

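Of 104 combinations of a probeset and a group, 9 held an array that stood apart from the rest of its group by Dixon's test at the 95% level. Chance flags about 1 in 20 groups. For Mgll, 1450391_a_at read 11.31 in Ctrl 72 h replicate 34 (the next array was at 11.17), and 1453836_a_at read 9.26 in Ctrl 7 d replicate 62 (the next was at 10.33). The dim Mgll probeset 1431331_at was high at 6.27 in CIE 0 h replicate 26, at 6.17 in CIE 8 h replicate 1 and at 6.40 in Ctrl 7 d replicate 62. Daglb was low at 7.69 in Ctrl 8 h replicate 42. For Abhd6, 1419103_a_at was low at 10.41 in CIE 8 h replicate 15 and at 10.36 in Ctrl 7 d replicate 62, and 1419104_at was high at 10.14 in CIE 7 d replicate 13. Ctrl 7 d replicate 62 stood apart at 3 probesets. None of these arrays belongs to the Mgll comparison of 1426785_s_at at 0 h except CIE replicate 26, which was the highest CIE array there.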

How the results depend on the processing

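No paired analysis by replicate number was possible because the groups share none, and the block that was run is that of the inferred sets. The Mgll change at 0 h kept its direction under every alternative, and it crossed the threshold of 0.01, so that 1 member probeset passed, with another quantile normalization (0.36, adjusted p 0.00915), arrays centred on their median (0.36, 0.00976), trend and robust eBayes (0.35, 0.00859), array weights (0.38, 0.00858), probesets with a mean under 6 left out (0.35, 0.00745) and the brightest probeset of each gene alone (0.35, 0.00826). The last 2 test fewer probesets. In the main fit the Mgll adjusted p of 0.0109 was already close to the threshold. Over the 9 other settings the number of all probesets called at 0 h ran from 19 to 812, against 717 in the main fit. With the cortical marker mean as a covariate, added after seeing the data, the Mgll change was 0.37 and 2 member probesets passed, and 52 probesets passed at 8 h. With the arrays of 0 h alone the Mgll adjusted p was 0.16 and 0 members passed at 0.05. Leaving out single arrays gave Mgll changes at 0 h of 0.31 to 0.43 (adjusted p 0.000892 to 0.0409) and 0 to 2 member probesets called, the calls coming without CIE replicate 72 or Ctrl replicate 20. At 0.05 the member probesets called ranged from 1 to 3. The number of all probesets called at 0 h at 0.01 ranged from 366 to 892 in these fits.

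Reversals were confined to changes that passed no threshold. Napepld was -0.031 at 8 h and 0.0095 at 72 h with array weights. With the covariate Dagla was -0.0028 at 0 h, Napepld -0.0076 at 8 h, and Faah -0.21 at 72 h and -0.052 at 7 d. With single arrays left out, Dagla at 0 h ran from -0.030 to 0.073, Cnr1 at 8 h from -0.0019 to 0.20, Napepld at 8 h from -0.13 to 0.11 and at 72 h from -0.14 to 0.0039, and at 7 d Faah from -0.071 to 0.19, Mgll from -0.10 to 0.0076 and Daglb from -0.091 to 0.025. The cause was not tested. Of 252 member changes under other settings 239 kept their direction and side, and of 315 with an array left out 295 did. Fabp7 at 0 h had an adjusted p of 0.0422 with the arrays of 0 h alone, and at 8 h one of 0.0567 with the sets as a block and 0.0144 to 0.104 with single arrays left out, against 0.00906 with array weights and 0.00937 with the covariate.

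Counts over all probesets moved more. The 717 probesets called at 0 h became 299 with the sets as a block, 309 with array weights, 396 with the brightest probesets alone and 19 with the arrays of 0 h alone, and 366, 437 and 465 without CIE replicate 5, Ctrl replicate 30 and CIE replicate 26. The 28 called at 8 h became 119 with array weights and 6 with the arrays of 8 h alone, 13 without Ctrl replicate 50, 16 without CIE replicate 1, and 17 without Ctrl replicate 4 or 42. Array weights called 20 at 72 h and 1 at 7 d. The groups of 5 or 6 arrays limit which differences could be detected.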
